A study of Mus musculus with 3 samples.

Results

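The 10 genes described here, Sod1, Sod2, Cat, Gpx1, Gpx4, Prdx3, Prdx5, Txnip, Hmox1 and Nfe2l2, encode enzymes that remove reactive oxygen species or proteins that control them. They were taken by symbol from the 30415 gene symbols of the count matrices. All 10 were read in all 3 libraries and passed the minimum of 50 unique molecular identifiers (UMIs, each standing for 1 captured transcript) over the libraries compared. Together they gave 17231 UMIs in the isotype library, 12960 in the PD1/PEM library and 15953 in the PDL1/ATZ library.

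NOD/SCID mice, an immunodeficient strain without functional T and B lymphocytes that still has macrophages, were given an isotype control antibody, pembrolizumab or atezolizumab on days 0 and 7. Pembrolizumab was raised against human PD-1 and atezolizumab against its ligand PD-L1. On day 14 the hearts were digested and captured for droplet 3′ single-cell RNA sequencing, with 3 hearts pooled into 1 library per group. Titles and treatment tags contradict each other for both antibody libraries (the library titled PD1/PEM is tagged Atezolizumab and the one titled PDL1/ATZ is tagged Pembrolizumab), so libraries are called by their titles and no difference is assigned to an antibody. With 1 library per group there is no replicate and no test between groups, and all intervals are 95% intervals for counting error only.

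The isotype, PD1/PEM and PDL1/ATZ libraries held 9510, 6388 and 11599 cells with medians of 1532.5, 2013.5 and 1010 UMIs per cell. The highest mitochondrial share of a deposited cell was 30%, 30% and 29.45%. Mitochondrially encoded transcripts made up a median of 27.1%, 26.9% and 8.05% of the UMIs of a cell, so the PDL1/ATZ library stood apart from the others. Between it and the others, 1942 and 2893 symbols had UMIs on one side only, none of them a gene named here. Of the cell barcodes, 23 occurred in both the isotype and the PD1/PEM library, and 0 in PDL1/ATZ and either of these. UMIs of the haemoglobin gene Hba-a1 were found in 87.9%, 98.3% and 97.4% of all deposited cells and of the cardiomyocyte gene Ttn in 99.9%, 99.95% and 93.9%. Transcripts of red cells and heart muscle were thus in nearly every droplet, and a UMI of a gene in a cell is not read here as expression by that cell.

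Cells contain superoxide, formed mainly by the mitochondrial respiratory chain and by NADPH oxidases, and superoxide dismutases turn it into hydrogen peroxide. Catalase, glutathione peroxidases and peroxiredoxins then reduce the peroxide, with electrons that come from glutathione or thioredoxin and, through them, from NADPH. Cardiac muscle is rich in mitochondria, and Sod2, Prdx3 and part of Prdx5 act inside them. NRF2, the protein of Nfe2l2, is a transcription factor that drives many antioxidant genes when its repressor KEAP1 is oxidised.

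Levels are given as UMIs per 1000000 UMIs of the library (CPM), summed over all deposited cells. They are not divided by transcript length, since 3′ libraries read 1 end of each transcript, and each gene is compared with itself across libraries. The shares of cells with a UMI of these genes followed the depth of the cells: over the 30 combinations of gene and library, the observed share lay at most 0.87 percentage points from the share expected if the same UMIs were spread over cells by depth alone. Sod2, for example, had a UMI in 20.7% of isotype cells (19.9 to 21.5, Clopper-Pearson), against 20.5% under that spread. In sums of this kind, fewer cells of a type and less RNA per cell cannot be told apart.

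**Figure D1:**
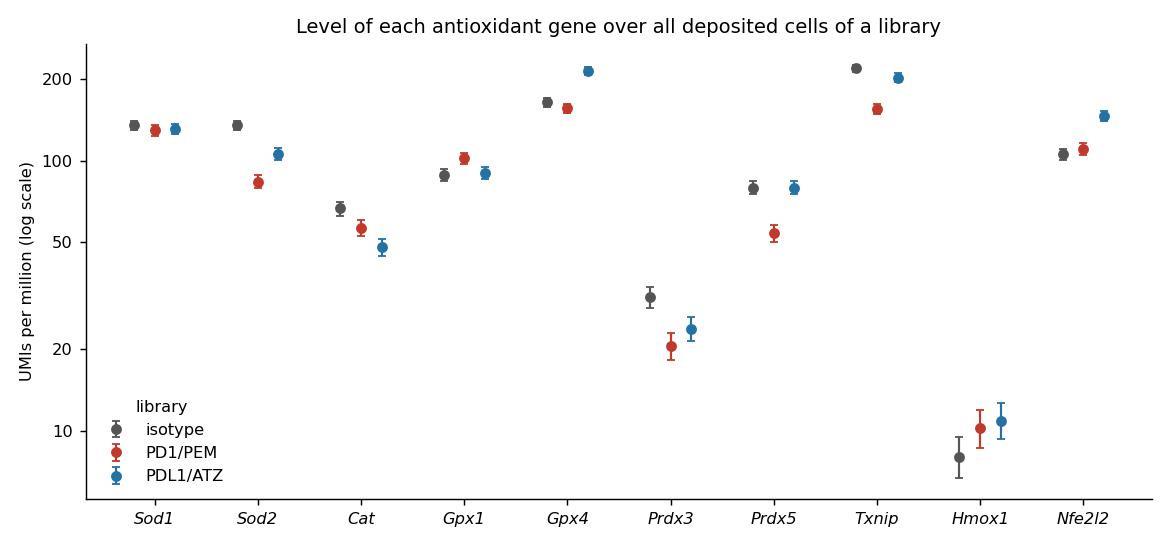
CPM (log scale) of the 10 antioxidant genes over all deposited cells of the isotype, PD1/PEM and PDL1/ATZ libraries; points are the 1 library of each group and bars are exact 95% Poisson intervals for counting error. Sod2 is highest in the isotype library at 135 CPM and lowest in the PD1/PEM library at 83.6 CPM, while Sod1 lies between 129 and 135 CPM in all 3.

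The superoxide dismutases parted. Sod1 encodes the copper and zinc enzyme of the cytosol, and Sod2 the manganese enzyme of the mitochondrial matrix. Sod1 stood at 135 CPM in the isotype library, 129 in PD1/PEM and 131 in PDL1/ATZ. Sod2 stood at 135 CPM (129 to 141, from 2252 UMIs) in the isotype library, 83.6 (79.0 to 88.4, from 1234) in PD1/PEM and 106 (101 to 111, from 1603) in PDL1/ATZ. The 3 Sod2 intervals do not overlap, whereas those of Sod1 all do. Without mitochondrial UMIs, Sod1 stood at 182.4 CPM in isotype, 174.7 in PD1/PEM and 142.2 in PDL1/ATZ, and Sod2 at 182.5, 112.8 and 114.7. The like level of Sod1 in PDL1/ATZ and isotype thus held on the scale of all UMIs. Sod2 was 1.62-fold lower in PD1/PEM than in isotype (1.51 to 1.73), and Sod1 differed by 1.04-fold with an interval that includes no difference (0.981 to 1.11). Sod2 lay at percentile 2.50 of the log2 ratios of the 14748 genes measured in that comparison, whose median was 0.01.

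Sod2 lies on the + strand of mouse chromosome 17 (13006846 to 13040063 on GRCm38), and Sod1 on the + strand of chromosome 16 (90220754 to 90226329), where it overlaps Scaf4 on the other strand. To show the DNA before the start of genes that were lower in PD1/PEM beside one that was not, the exon-free stretch before the RefSeq start (GRCm38.p6) is printed for Sod2 (chr17:13007589-13007816, + strand), Prdx3 (chr19:60874557-60874788, − strand), Txnip (chr3:96557707-96557956, + strand) and Sod1 (chr16:90220512-90220753, + strand). RefSeq promoter windows matched 9 of the 10 genes. The Sod2 stretch lies before the RefSeq start but inside the Sod2 span given above, which begins further upstream at 13006846. Each stretch reads 5′ to 3′ on the gene's strand, free of exons of protein-coding genes. Capitals mark matches, on either strand, to 7 short motifs.
Sod2: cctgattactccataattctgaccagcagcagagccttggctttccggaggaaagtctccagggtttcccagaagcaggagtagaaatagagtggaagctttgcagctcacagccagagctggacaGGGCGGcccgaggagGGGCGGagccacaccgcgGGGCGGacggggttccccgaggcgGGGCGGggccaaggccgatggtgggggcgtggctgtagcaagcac
Prdx3: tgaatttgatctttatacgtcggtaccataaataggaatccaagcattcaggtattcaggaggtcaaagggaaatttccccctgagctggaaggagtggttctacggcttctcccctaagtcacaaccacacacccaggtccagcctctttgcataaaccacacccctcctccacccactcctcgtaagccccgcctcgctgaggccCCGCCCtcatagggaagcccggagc
Txnip: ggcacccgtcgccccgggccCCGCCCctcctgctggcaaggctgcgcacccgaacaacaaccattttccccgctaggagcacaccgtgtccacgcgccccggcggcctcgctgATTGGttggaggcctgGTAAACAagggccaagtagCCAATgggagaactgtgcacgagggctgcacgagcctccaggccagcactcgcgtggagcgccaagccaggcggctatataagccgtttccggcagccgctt
Sod1: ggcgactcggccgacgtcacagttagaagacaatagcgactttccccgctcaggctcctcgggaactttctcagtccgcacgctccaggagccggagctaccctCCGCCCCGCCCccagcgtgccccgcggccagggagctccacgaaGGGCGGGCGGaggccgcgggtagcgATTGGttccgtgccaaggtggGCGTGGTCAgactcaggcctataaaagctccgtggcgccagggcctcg
The motifs searched were the GC box GGGCGG, the CCAAT box CCAAT, the E-box CACGTG, the nuclear receptor element AAGGTCA, the forkhead site GTAAACA, the core TGACNNNGC of the antioxidant response element and the nuclear respiratory factor NRF1 site. Matches to different motifs, or to one motif, were allowed to overlap. Of the 32851 RefSeq windows of 300 bases, these were found in 35.7%, 37.4%, 7.15%, 4.72%, 3.65%, 12.4% and 4.60%, in the same order. The Sod2 stretch held 4 GC boxes and no other motif, and the Prdx3 stretch held 1 GC box. Txnip, the thioredoxin-binding protein gene described further on, had 1 GC box, 2 CCAAT boxes and 1 forkhead site. Sod1 had 4 GC boxes, 1 CCAAT box and 1 antioxidant response core. The stretches of Sod2, Prdx3 and Txnip, 3 of the 5 genes lower in PD1/PEM by counting intervals, therefore shared the GC box. Sod1 and 35.7% of all windows also have it. The windows are longer than the stretches and run past the start, so the shares are not of like length. Of the lower genes not printed, Cat had 1 GC box and 4 CCAAT boxes in its stretch, and Prdx5 had no exon-free stretch.

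Of the 10 genes, 2 were at least 1.5-fold apart between PD1/PEM and isotype, Sod2 and Prdx3, both lower. Over all 14748 genes measured, 10.1% were at least 1.5-fold apart, 5.51% higher and 4.57% lower. At any size of ratio, 49.0% of all genes were lower. The median log2 ratio of the 10 genes was -0.16. By counting intervals, 5 were lower (Sod2, Cat, Prdx3, Prdx5 and Txnip), 2 higher (Gpx1 and Hmox1), and the intervals of Sod1, Gpx4 and Nfe2l2 included no difference. The share of all genes whose interval leaves out no difference was not counted. These counts, and those beyond counting error in the lists below, thus have no background to be read against. Such intervals leave out no difference even at small folds, as for Prdx1 in PD1/PEM (1.07-fold lower, 1.005 to 1.13). Between PDL1/ATZ and isotype 0 of the 10 were at least 1.5-fold apart, against 55% of the 15496 genes measured there, 49.6% higher and 5.32% lower. At any size of ratio, 18.3% of all genes were lower there. The median log2 ratio of all genes in that comparison was 0.58, and relative to it all 10 genes were lower, by 1.08-fold (Nfe2l2) to 2.08-fold (Cat).

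**Figure D2:**
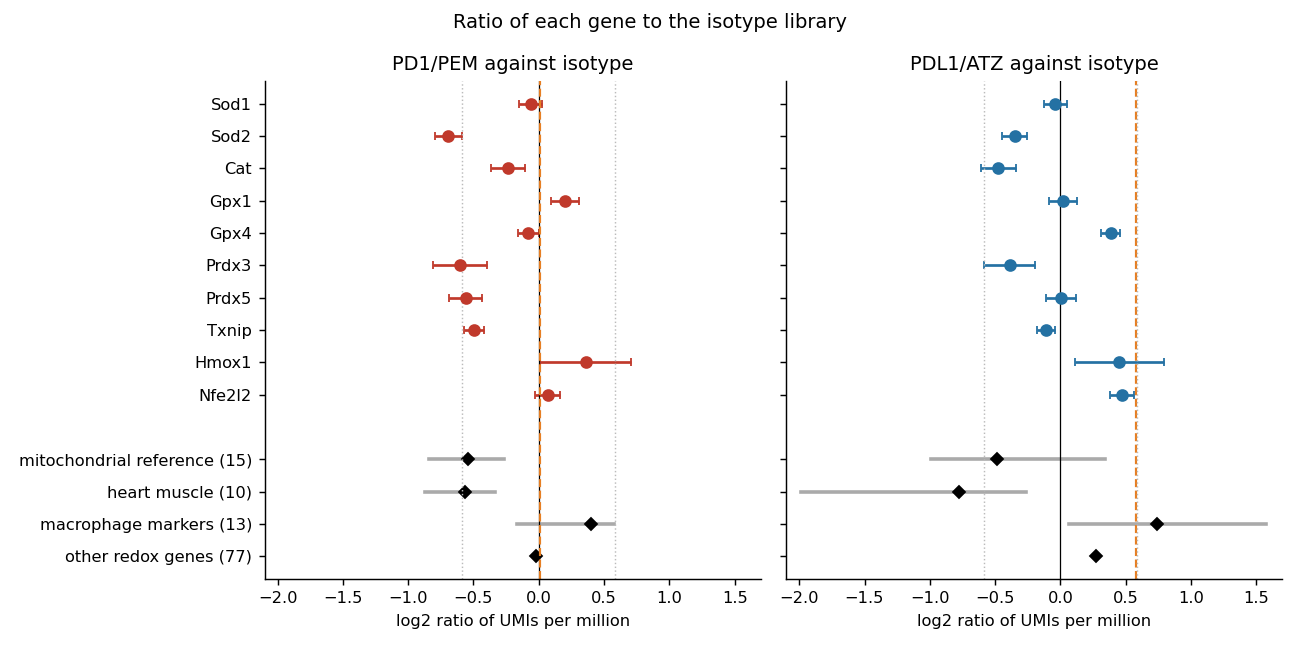
Log2 ratio of CPM of each antioxidant gene in PD1/PEM (left) and PDL1/ATZ (right) against isotype, with exact 95% intervals for counting error; below, diamonds are medians of gene lists (number of genes measured in brackets), with grey bars from the lowest to the highest gene except for the other redox genes. The dashed line is the median of all genes (0.01 and 0.58) and the dotted lines mark 1.5-fold; on the left Sod2, Prdx3, Prdx5 and Txnip lie near the median of the mitochondrial reference list (-0.54), and on the right all 10 genes lie under the dashed line.

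Among Cat, Gpx1 and Gpx4, whose enzymes remove peroxide with iron or selenium, Cat was the one lower in both antibody libraries. Outside the 10 genes, Gpx3 was lower in both as well, at 380, 313 and 264 CPM in isotype, PD1/PEM and PDL1/ATZ (named after its values were seen). Cat encodes the haem enzyme of peroxisomes (chromosome 2, 103453849 to 103485160, − strand). It stood at 66.5 CPM in isotype, 56.5 in PD1/PEM and 47.9 in PDL1/ATZ, with no overlap between the isotype interval and the others. Cat was 1.18-fold lower in PD1/PEM (1.07 to 1.29) and 1.39-fold lower in PDL1/ATZ (1.26 to 1.53), but scaled to heart muscle transcripts it was higher in both, at log2 ratios of 0.24 and 0.73.

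Gpx1 and Gpx4 are selenoenzymes: Gpx1, of cytosol and mitochondria, reduces hydrogen peroxide, and Gpx4 reduces lipid hydroperoxides in membranes and so guards against ferroptosis. Both read an in-frame TGA codon as selenocysteine, the residue of the active site. It is shown in capitals within 21 bases of coding sequence to either side, from the GENCODE M21 transcripts, for Gpx1 (chromosome 9, codon at 108339451 to 108339453, + strand, codon 47) and Gpx4 (chromosome 10, codon at 80054737 to 80054739, + strand, codon 73 of the transcript read).
Gpx1: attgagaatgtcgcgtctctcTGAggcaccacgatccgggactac
Gpx4: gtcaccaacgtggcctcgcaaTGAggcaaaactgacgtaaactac
Gpx1 stood at 88.7 CPM in isotype, 102 in PD1/PEM and 89.9 in PDL1/ATZ. It was 1.15-fold higher in PD1/PEM (1.07 to 1.24), and its PDL1/ATZ interval included no difference (0.942 to 1.09). Gpx4 stood at 165 CPM in isotype, 156 in PD1/PEM and 215 in PDL1/ATZ, so the PDL1/ATZ library was the high one. It was 1.06-fold lower in PD1/PEM, with an interval that touches no difference (0.999 to 1.12), and 1.31-fold higher in PDL1/ATZ (1.24 to 1.38). A pseudogene of Gpx4 is annotated, and how reads shared with it were counted is not given in the sources used here, which leaves the level uncertain.

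Both peroxiredoxins of mitochondria were lower in PD1/PEM scaled to all UMIs. These are thiol peroxidases that draw on thioredoxin: Prdx3 (chromosome 19, 60864051 to 60874556, − strand) acts in the matrix, and Prdx5 (chromosome 19, 6906697 to 6910106, − strand, overlapping Trmt112 on the other strand) in mitochondria, peroxisomes and cytosol. Prdx3 stood at 31.2 CPM in isotype, 20.5 in PD1/PEM and 23.8 in PDL1/ATZ. Prdx5 stood at 79.4 CPM, 53.8 and 79.5 in the same order. On the scale of all UMIs, Prdx3 was thus low in both antibody libraries and Prdx5 low in PD1/PEM alone. Without mitochondrial UMIs, Prdx5 was lower in PDL1/ATZ too, at 107 CPM in isotype and 86.2 in PDL1/ATZ, a log2 ratio of -0.32. Prdx3 was 1.52-fold lower in PD1/PEM (1.32 to 1.76) and 1.31-fold lower in PDL1/ATZ (1.14 to 1.5). Prdx5 was 1.48-fold lower in PD1/PEM (1.35 to 1.61), just under the 1.5-fold mark, and its ratio in PDL1/ATZ was 1.001-fold (0.925 to 1.08). The 4 other peroxiredoxin genes, Prdx1, Prdx2, Prdx4 and Prdx6, had log2 ratios of -0.26 to -0.09 in PD1/PEM, and 0 of them reached 1.5-fold; scaled to heart muscle or mitochondrial reference transcripts all 4 log2 ratios were above 0.

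Txnip encodes a binding partner and inhibitor of thioredoxin that also restrains glucose uptake (chromosome 3, 96557957 to 96561883, + strand, overlapping Gm15441 on the other strand). It stood at 219 CPM (212 to 227) in isotype, 155 (149 to 162) in PD1/PEM and 203 (196 to 210) in PDL1/ATZ. The 3 intervals do not overlap and PD1/PEM was the lowest. Txnip was 1.41-fold lower in PD1/PEM (1.34 to 1.49) and 1.08-fold lower in PDL1/ATZ (1.03 to 1.14). Whether counting kept strands apart is not given in the sources used here, so UMIs of Sod1, Prdx5 and Txnip cannot be told from those of the genes that overlap them on the other strand.

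Hmox1 and Nfe2l2 had other patterns. Hmox1 encodes the inducible haem oxygenase, an NRF2 target that is prominent in macrophages clearing red cells (chromosome 8, 75093621 to 75100589, + strand). It was the scarcest of the 10 genes in UMIs, at 7.98 CPM (6.68 to 9.45, from 133 UMIs) in isotype, 10.2 (8.66 to 11.99, from 151) in PD1/PEM and 10.9 (9.30 to 12.7, from 165) in PDL1/ATZ. The intervals overlap, and the folds were 1.28 higher in PD1/PEM (1.01 to 1.63) and 1.37 higher in PDL1/ATZ (1.08 to 1.73). Beside it, the 5 erythroid genes summed to 3951, 7175 and 8329 CPM and 12 of 13 macrophage markers were higher in PD1/PEM (sums of 493, 639 and 804 CPM); their part in the Hmox1 values was not tested. Nfe2l2 (chromosome 2, 75675513 to 75704641, − strand) stood at 106 CPM in isotype, 111 in PD1/PEM and 147 in PDL1/ATZ. It was close to isotype in PD1/PEM (1.05-fold higher, 0.979 to 1.12) and 1.39-fold higher in PDL1/ATZ (1.30 to 1.48), which is below the median of all genes there.

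Genes of mitochondria outside the antioxidant set were lower along with Sod2, Prdx3 and Prdx5. Of 15 reference genes for mitochondrial mass (such as Cs, citrate synthase, and Atp5b, a subunit of ATP synthase), all had log2 ratios under 0 in PD1/PEM, 14 of them beyond counting error, with a median of -0.54. In PDL1/ATZ 14 of the 15 had ratios under 0, with a median of -0.48. Summed, they stood at 4682, 3294 and 3588 CPM in isotype, PD1/PEM and PDL1/ATZ. Of all genes measured, 49.0% had log2 ratios under 0 in PD1/PEM and 18.3% in PDL1/ATZ. Cs was 1.79-fold lower in PD1/PEM (1.68 to 1.92), Ndufs1 1.58-fold, and Atp5b and Uqcrc1 1.54-fold each. All 10 abundant heart muscle transcripts were also lower in PD1/PEM, with a median of -0.56, and made up 3.37%, 2.43% and 1.46% of all UMIs. Of 9 cardiomyocyte markers 8 were lower in PD1/PEM (sums of 3523, 3104 and 1361 CPM). Of 6 atrial markers 6 were lower (sums of 6179, 2565 and 4017 CPM), and of 4 ventricular markers 3 were lower (sums of 2382, 1457 and 1658 CPM). All 8 immediate early genes were higher in PD1/PEM (sums of 3075, 5049 and 3202 CPM), as were 3 of 4 heat shock genes (588, 655 and 345 CPM) and 9 of 13 endothelial markers (3034, 3657 and 5525 CPM). The part of these transcripts in the Sod2 values was not tested.

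Set against those transcripts, Sod2 differed less between PD1/PEM and isotype. For every 1000 UMIs of the 15 mitochondrial reference genes there were 28.8 Sod2 UMIs in isotype, 25.4 in PD1/PEM and 29.5 in PDL1/ATZ, a 1.14-fold lower ratio in PD1/PEM (1.06 to 1.22) and 1.02-fold higher in PDL1/ATZ (0.959 to 1.09). Sod1 gave 28.8, 39.3 and 36.6 on the same scale, higher in both antibody libraries. For every 1000 UMIs of heart muscle transcripts, Sod2 gave 4.01, 3.44 and 7.24 UMIs, 1.16-fold lower in PD1/PEM (1.09 to 1.25) and 1.81-fold higher in PDL1/ATZ (1.69 to 1.93). Prdx3 gave 6.66, 6.23 and 6.64 UMIs for every 1000 of the mitochondrial reference, with intervals of its ratios that include no difference (0.926 to 1.24 and 0.875 to 1.15). Per 1000 mitochondrial reference UMIs, Txnip gave 46.8 in isotype and 47.2 in PD1/PEM.

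These denominators shift every gene alike and changed the split of the 10 genes. The median log2 ratio of all genes in PD1/PEM was 0.48 scaled to heart muscle transcripts and 0.51 scaled to the mitochondrial reference, against 0.01 scaled to all UMIs. In PDL1/ATZ it was 1.79 and 0.96, against 0.58. In PD1/PEM 3 were higher and 7 lower when scaled to all UMIs, 6 higher and 4 lower scaled to heart muscle transcripts, and 7 higher and 3 lower scaled to the mitochondrial reference. Under all 5 denominators in PD1/PEM, the log2 ratio of Sod2 was under 0 and those of Gpx1 and Hmox1 were above 0. Scaled to all UMIs, the Hmox1 interval came close to no difference (1.01 to 1.63). Prdx3 and Prdx5 also kept log2 ratios under 0, but scaled to either reference their intervals included no difference. Nfe2l2 kept ratios above 0, with an interval that included no difference scaled to all UMIs. The members at least 1.5-fold apart under the last 2 denominators were Gpx1 and Hmox1, both higher, in place of Sod2 and Prdx3, where 36.6% and 40.6% of all genes were at least 1.5-fold higher. In PDL1/ATZ 5 were higher and 5 lower scaled to all UMIs, 3 and 7 without mitochondrial UMIs, 10 and 0 scaled to heart muscle transcripts, and 8 and 2 scaled to the mitochondrial reference. Of all genes, 95% were at least 1.5-fold higher there scaled to heart muscle transcripts and 73.2% scaled to the mitochondrial reference. The direction of most genes in that library thus depends on the denominator. Gpx4, Hmox1 and Nfe2l2 had log2 ratios above 0 under all 5, but below the median of all genes each time. Without mitochondrial UMIs, for example, they were only 0.07, 0.13 and 0.15, against a median of 0.26.

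**Figure D3:**
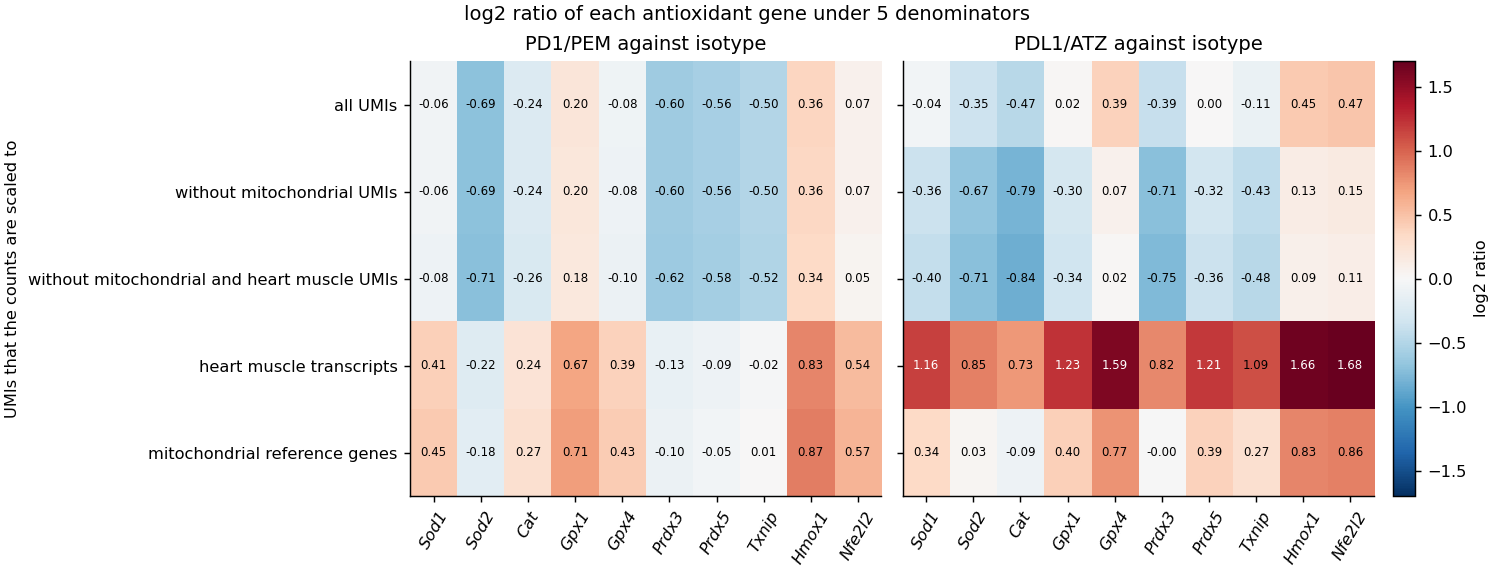
Log2 ratio of each antioxidant gene (columns) in PD1/PEM (left) and PDL1/ATZ (right) against isotype under 5 denominators (rows); blue is lower and red higher than isotype, with the ratio printed in each cell. In PD1/PEM, Sod2 is negative in every row, from -0.71 to -0.18, while in PDL1/ATZ it runs from -0.71 to 0.85.

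Sod2 was also compared between cells of like mitochondrial share. Among cells with under 20% mitochondrial UMIs (491 isotype and 378 PD1/PEM cells), Sod2 stood at 137 and 56.4 CPM, 2.42-fold lower (1.78 to 3.33). Between 20 and 25% it stood at 126 and 76.1 CPM, 1.65-fold lower (1.43 to 1.92), and over 25% at 138 and 89.1 CPM, 1.55-fold lower (1.43 to 1.68). Sod2 was therefore lower within every range of mitochondrial share. Prdx3 was lower in all 3 ranges too, by 2.18-fold (1.17 to 4.27), 1.40-fold (1.03 to 1.92) and 1.51-fold (1.27 to 1.79). For Prdx5 the folds were 1.49 (0.995 to 2.24), 1.27 (1.05 to 1.54) and 1.54 (1.39 to 1.71), and for Txnip 1.11 (0.908 to 1.36), 1.38 (1.24 to 1.53) and 1.46 (1.37 to 1.56). The lowest range therefore gave Txnip no difference beyond counting error. The PDL1/ATZ library had 9 cells over 25% and 44 between 20 and 25%, and was not divided this way.

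**Figure D4:**
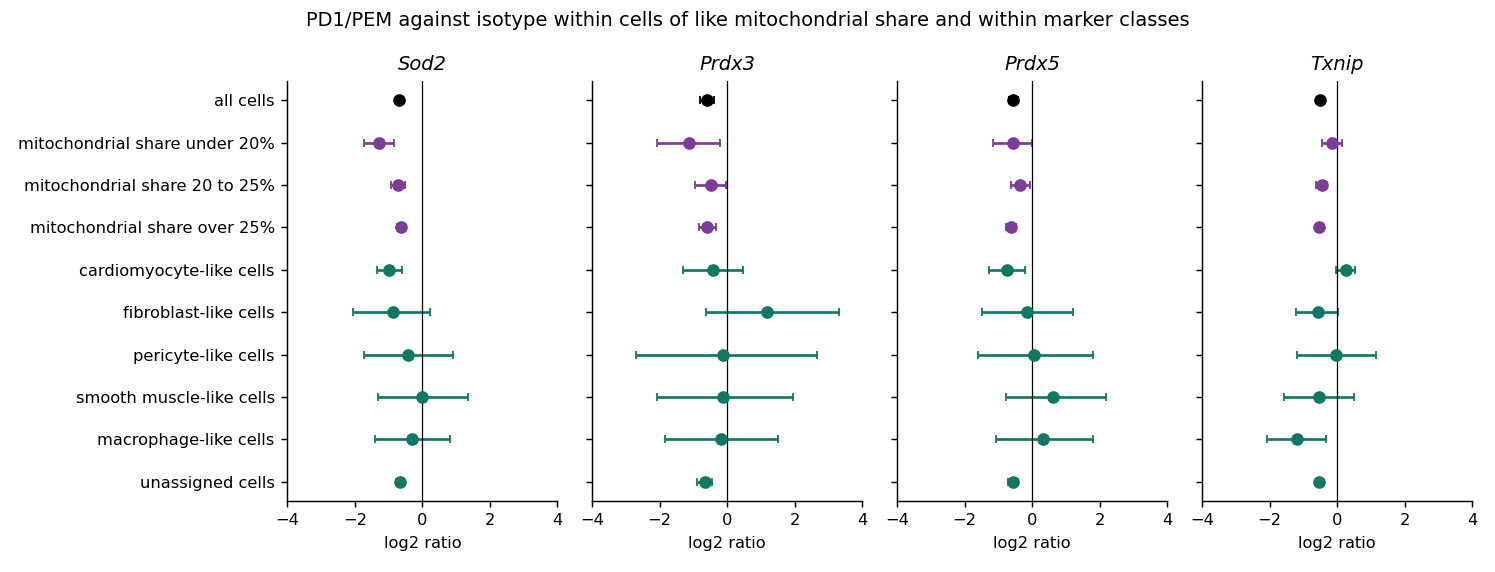
Log2 ratio of PD1/PEM to isotype for Sod2, Prdx3, Prdx5 and Txnip over all cells (black), within ranges of the mitochondrial share of a cell (purple) and within marker classes (green), with exact 95% intervals for counting error. Sod2 lies left of 0 in each mitochondrial range (folds of 2.42, 1.65 and 1.55) and in 4 of 5 named classes. Txnip lies right of 0 in cardiomyocyte-like cells, with an interval that includes 0.

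Cells were classed by markers other than these genes. A cell was given a class if at least 3 of its markers had a UMI and their summed UMIs exceeded the number expected from the library average at the cell's depth by at least 5 square roots of that number (of 1 where it was less than 1). Most cells stayed unassigned: 94.0% in isotype, 90.0% in PD1/PEM and 94.3% in PDL1/ATZ. Cardiomyocyte-like cells were 342, 393 and 173, fibroblast-like 85, 69 and 72, macrophage-like 59, 62 and 106, smooth muscle-like 33, 40 and 65 and pericyte-like 27, 31 and 89. Classes are ranges of a score: within 1 unit of the limit, 191, 192 and 158 classed cells lay inside and 281, 291 and 292 cells outside. The median cardiomyocyte-like cell had 10.7, 9.59 and 8.97 cardiomyocyte marker UMIs per 1000, against 2.46, 1.60 and 0.842 in unassigned cells. Its median of fibroblast marker UMIs was 1.25, 1.61 and 1.09 per 1000, and of endothelial ones 1.76, 2.06 and 3.10. Ttn, which was not used for the class, was higher in these cells in all 3 libraries, but Myh6 was not in isotype (6852 against 7779 CPM in unassigned cells). No cell met the rule for lymphocytes or glia.

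Within cardiomyocyte-like cells Sod2 stood at 130 CPM (109 to 153) in isotype, 66.0 (54.2 to 79.7) in PD1/PEM and 103 (75.6 to 136) in PDL1/ATZ. Sod2 was 1.96-fold lower there in PD1/PEM (1.52 to 2.54), and 1.59-fold lower in unassigned cells (1.47 to 1.71). Of 5 named classes with at least 20 cells in both libraries, 4 had lower Sod2 in PD1/PEM. The exception was the smooth muscle-like class, with 100 CPM in isotype and 100.1 in PD1/PEM, from 10 and 13 UMIs. In fibroblast-like cells Sod2 stood at 101 and 54.6 CPM, in pericyte-like cells at 146 and 109 and in macrophage-like cells at 101 and 82.1, from at most 20 UMIs per value, and each interval of the ratio included no difference. Classes of a library share its background RNA, so the 4 of 5 are not separate readings. The part of that RNA in the class values was not tested.

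Among the 47 ratios of a gene within a named class in PD1/PEM, 4 had an interval without no difference. Besides Sod2 in cardiomyocyte-like cells these were Prdx5 in the same cells (58.1 to 34.8 CPM, 1.67-fold lower, 1.15 to 2.42), Gpx1 in the same cells (59.9 to 83.1 CPM, 1.39-fold higher, 1.03 to 1.89) and Txnip in macrophage-like cells (222 to 97.5 CPM, 2.27-fold lower, 1.26 to 4.23, from 33 and 19 UMIs). Txnip in cardiomyocyte-like cells stood at 150 CPM in isotype, 179 in PD1/PEM and 201 in PDL1/ATZ. In unassigned cells it stood at 225, 153 and 206 CPM, so the isotype library was the lowest in the class and the highest outside it. For PD1/PEM the interval in the class included no difference (1.19-fold higher, 0.983 to 1.45). Of the 47 ratios in PDL1/ATZ, 4 had such an interval: Gpx4 in fibroblast-like cells (156 to 266 CPM, 1.704-fold higher, 1.05 to 2.80), Txnip in cardiomyocyte-like cells (1.34-fold higher, 1.03 to 1.73), Nfe2l2 in macrophage-like cells (107 to 231 CPM, 2.15-fold higher, 1.22 to 4.01) and Cat in cardiomyocyte-like cells (64.4 to 34.2 CPM, 1.88-fold lower, 1.08 to 3.47). No allowance for 47 looks was made in these intervals, and the share of all genes beyond counting error within a class was not counted. Class ratios are scaled to all UMIs, and the mitochondrial share differed in PDL1/ATZ. Its median was 26.1% in isotype and 6.19% in PDL1/ATZ for fibroblast-like cells, and 26.5% and 6.01% for macrophage-like cells. Whether the higher ratios in PDL1/ATZ stay beyond counting error without mitochondrial UMIs was not computed.

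Between classes of a library, Hmox1 was on the same side in all 3 libraries. Macrophage-like cells held 33.6 CPM (10.9 to 78.3, from 5 UMIs) in isotype, 30.8 (11.3 to 67.0, from 6) in PD1/PEM and 52.7 (28.1 to 90.1, from 13) in PDL1/ATZ. That was 4.08-fold (1.30 to 9.79), 2.90-fold (1.04 to 6.48) and 5.05-fold (2.62 to 8.91) above unassigned cells, on few UMIs; outside the cardiomyocyte-like cells, 19 of 151 such levels differed from unassigned cells beyond counting error. Nfe2l2 in macrophage-like cells was above unassigned cells beyond counting error in PDL1/ATZ alone (1.59-fold, 1.199 to 2.07). Cardiomyocyte-like cells held less Sod1, Gpx4 and Prdx5 than unassigned cells in all 3 libraries. Sod1, for example, stood at 90.3, 99.0 and 68.4 CPM in them, 1.53-fold (1.25 to 1.88), 1.35-fold (1.15 to 1.60) and 1.98-fold (1.40 to 2.91) lower. Sod2 in cardiomyocyte-like cells was lower than in unassigned cells beyond counting error in PD1/PEM alone (1.31-fold, 1.07 to 1.61); in isotype the fold was 1.05 lower (0.891 to 1.26).

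Genes with a pattern most like that of Sod2 were ranked over the 16 combinations of library and class with at least 50 cells, by Pearson's r of log2(CPM + 1), among 4051 genes with at least 500 UMIs in each library. The first 8 were Pbxip1 (r 0.74), Cryab, a small heat shock protein of muscle (0.70), Ndufab1, the mitochondrial acyl carrier protein (0.70), Mdh1, cytosolic malate dehydrogenase (0.69), Ubxn4 (0.68), Polr2m (0.67), Cdc37l1 (0.66) and Suclg1, a subunit of succinyl-CoA ligase (0.66). Prdx5 was at 0.31, rank 390, and the other antioxidant genes in that ranking lay between -0.38 (Gpx1) and 0.06 (Sod1). The 16 points come from 3 libraries and share their depth and background RNA, so these values only describe likeness.

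The other genes of the redox system were split between higher and lower in PD1/PEM. Scaled to all UMIs, of 78 genes in 11 lists 77 were measured, 37 higher and 40 lower, where 49.0% of all genes were lower. Their median log2 ratio was -0.02, and 4 were at least 1.5-fold apart (1 higher, 3 lower), against the 10.1% given above for all genes. The 3 lower genes were Mgst3, a membrane glutathione transferase (40.2 to 26.0 CPM, 1.55-fold lower, 1.36 to 1.76), Idh2, which supplies mitochondrial NADPH (350 to 196 CPM, 1.79-fold lower, 1.71 to 1.87), and Ppargc1a, a coactivator of mitochondrial genes (1415 to 520 CPM, 2.72-fold lower, 2.65 to 2.80). In PDL1/ATZ Ppargc1a stood at 51.2 CPM.

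Prdx3 draws its electrons from the mitochondrial thioredoxin system. Txn2, the mitochondrial thioredoxin, stood at 54.6 CPM in isotype, 40.8 in PD1/PEM and 47.0 in PDL1/ATZ, 1.34-fold lower in PD1/PEM (1.21 to 1.49). Txn1, the cytosolic one, stood at 41.4, 42.6 and 74.9 CPM and differed by 1.03-fold in PD1/PEM (0.921 to 1.15). Txnrd2, the mitochondrial thioredoxin reductase, was 1.24-fold lower (0.992 to 1.55), within counting error. Of 4 glutaredoxin genes 2 were lower beyond counting error, and all 4 log2 ratios, under 0 on the scale of all UMIs, were above 0 scaled to either reference. Glrx5, which acts in mitochondrial iron-sulphur assembly, was 1.36-fold lower (1.19 to 1.54) and Glrx 1.31-fold lower (1.11 to 1.54). Of 16 measured glutathione genes 6 were lower and 3 higher beyond counting error. The lower ones included the transferases Gstk1 (1.48-fold), Gsto1 (1.47-fold) and Gsta4 (1.47-fold). The higher ones were Gclc, the catalytic subunit of the rate-limiting enzyme of glutathione synthesis (1.47-fold, 1.33 to 1.61), Gstt1 (1.36-fold) and Mgst1 (1.22-fold), named after their values were seen. Of 9 genes of NADPH supply 1 was higher beyond counting error, Tkt, the transketolase (1.36-fold, 1.18 to 1.58), and 2 were lower, Idh2 and Me1 (1.18-fold, 1.05 to 1.34). Nnt, the mitochondrial transhydrogenase, was 1.27-fold lower within counting error (0.984 to 1.64). Sod3, the extracellular dismutase, was 1.22-fold lower (1.07 to 1.38), and Ccs, the copper chaperone of Sod1, differed by 1.03-fold (0.850 to 1.25).

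Of 8 genes for sources of oxidants, 4 were higher and 2 lower in PD1/PEM beyond counting error, with a median of 0.30. Among the higher ones, Cybb, the membrane subunit of the phagocyte oxidase, stood at 12.35 and 15.8 CPM (1.28-fold higher, 1.05 to 1.55) and Maoa, monoamine oxidase A, was 1.36-fold higher (1.13 to 1.63). Nox4 was 1.32-fold lower (1.157 to 1.505). Macrophage markers, given above, were higher as well, and their part in these values was not tested. Among regulators of NRF2, 2 of 8 genes were higher and 2 lower beyond counting error, with a median of -0.01. Bach1, which represses Hmox1, was 1.12-fold higher (1.02 to 1.23), Mafk 1.21-fold higher (1.11 to 1.33), and Nfe2l1 and Sqstm1 1.07-fold and 1.08-fold lower. Of 7 haem and iron genes 2 were higher and 1 lower beyond counting error, with Ftl1, the ferritin light chain, at 243 and 307 CPM (1.26-fold higher, 1.21 to 1.32), Blvra, biliverdin reductase A, 1.28-fold higher (1.04 to 1.57) and Hmox2, the constitutive haem oxygenase, 1.26-fold lower (1.11 to 1.42).

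Genes related to Txnip by sequence, with their regulators, and genes known to regulate Sod2 were also read in PD1/PEM. Of 6 genes of the Txnip list 2 were higher and 1 lower beyond counting error (median -0.13), with Arrdc4 1.30-fold higher (1.002 to 1.68), Arrdc3 1.13-fold lower (1.01 to 1.25) and Mlxipl, a sugar-responsive factor that drives Txnip, 1.22-fold lower within counting error (0.997 to 1.48). Of 7 genes known to act on Sod2, 2 were higher beyond counting error, Foxo3 by 1.16-fold (1.09 to 1.23) and Nfkb1 by 1.096-fold (1.04 to 1.16), and 1 was lower, Ppargc1a, given above. Sirt3, the mitochondrial deacetylase of the enzyme, was within counting error (1.08-fold lower, 0.867 to 1.35). In PDL1/ATZ 31 of the 77 redox genes were at least 1.5-fold apart, 23 higher and 8 lower, against the 55% given above, with a median log2 ratio of 0.27 that lies under the 0.58 of all genes.

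**Figure D5:**
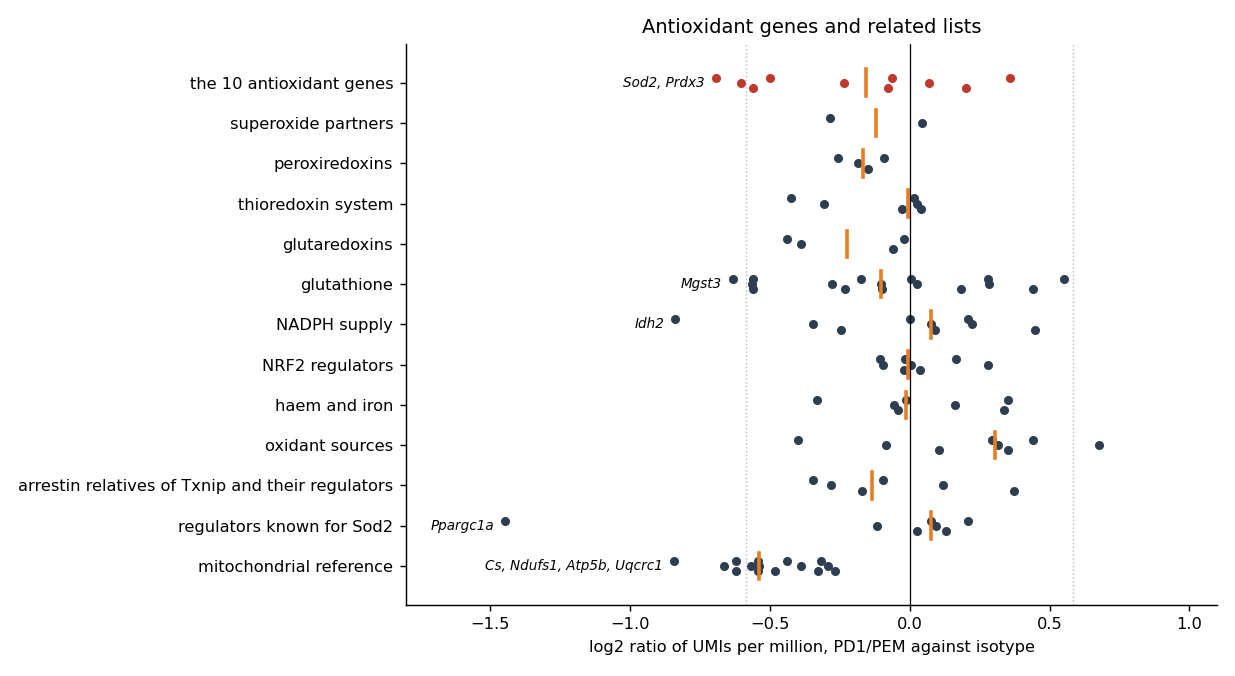
Log2 ratio of PD1/PEM to isotype for the 10 antioxidant genes (red) and for genes of each related list with at least 50 UMIs (dark), 1 point per gene, with the list median as an orange bar and 1.5-fold as dotted lines; genes at least 1.5-fold lower are named beside their list. All 15 mitochondrial reference genes lie left of 0, with a median of -0.54, and the medians of the other lists lie between -0.22 (glutaredoxins) and 0.30 (oxidant sources), with Ppargc1a far to the left at -1.45; scaled to the mitochondrial reference, Sod1, Cat, Gpx4 and Txnip move to the right of 0.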

How the data were processed

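Per the labels, the authors deposited 1 matrix of UMI counts per library from droplet 3′ RNA sequencing. Cell Ranger, Seurat and the build mm10 appear in the submitters' processing notes. No version, and no handling of strands, was found there. The deposited UMI counts were whole numbers and had been filtered, with at most 2499 genes per cell. No deposited cell had more than 30% mitochondrial UMIs, and how many cells were left out before deposit is not known here. UMIs were summed per library and divided by the library total (UMIs per 1000000, CPM). Groups came from sample titles. Of a gene's level the exact Poisson interval is given, of a share the Clopper-Pearson interval and of a ratio the exact conditional binomial interval, all at 95%. Genes with at least 50 UMIs over a pair of libraries were compared, and 1.5-fold was the size that counted. Symbols with UMIs in only 1 of the PDL1/ATZ library and the others were left out of the background there. All 10 members are named; of each related list up to 4 genes are named, those with the largest absolute log2 ratio of PD1/PEM to isotype. Of these, 1 gene is not reported here. The 10 genes and the lists were chosen with earlier results of these data known. The class rule and the scalings to heart muscle and mitochondrial reference transcripts were chosen after seeing the data. Doublets were kept in the sums. An alternative leaves out the 0.8% per 1000 cells with the highest simulated-doublet score (50 neighbours), 724, 326 and 1076 cells. Other alternatives changed the scaling, the cells, the weighting of cells, their depth, the minimum of UMIs, the fold and the number of markers. Scripts were tested on simulated data. Python libraries were numpy 2.4.6 and scipy 1.17.1.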

Additional observations from a re-analysis of the deposited data

Results flagged for a closer look

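Txnip in the PDL1/ATZ library lay on opposite sides of isotype in cardiomyocyte-like and in unassigned cells. In cardiomyocyte-like cells it was 1.34-fold higher (1.03 to 1.73), at 150 CPM from 168 UMIs in isotype and 201 CPM from 94 UMIs in PDL1/ATZ. In unassigned cells it was 1.09-fold lower (1.03 to 1.14), at 225 and 206 CPM. Both counting intervals leave out no difference, but with 1 library per group the difference between the classes was not tested. The cardiomyocyte-like ratio was 1 of 47 looked at. Both ratios are scaled to all UMIs, and the median mitochondrial share was lower in PDL1/ATZ. It was 22.0% and 5.34% in cardiomyocyte-like cells, and 27.3% and 8.14% in unassigned cells. Over all cells, leaving out mitochondrial UMIs moved the log2 ratio of Txnip from -0.11 to -0.43. The class ratios were not computed that way, so whether the higher one would stay beyond counting error is not known.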

How the results depend on the processing

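No paired analysis was possible because each group has 1 library. Of 71 alternatives, 50 left a Sod2 ratio within its counting interval or a count within 1.5 times the reported one, 19 moved it further and 2 turned its direction. The log2 ratio of Sod2 in PD1/PEM against isotype, -0.69, was -0.83 in cells with at most 25% mitochondrial UMIs, -0.22 scaled to heart muscle transcripts and -0.18 scaled to the mitochondrial reference. In PDL1/ATZ the ratio of -0.35 was -0.67 without mitochondrial UMIs, -0.71 also without heart muscle UMIs, -0.93 centred on the median of all genes and -0.20 after thinning each cell to 700 UMIs, and it turned to 0.85 scaled to heart muscle and 0.033 scaled to the mitochondrial reference. The 2 antioxidant genes at least 1.5-fold apart in PD1/PEM became 1 after thinning and 0 at 2-fold. In PDL1/ATZ the count of 0 became 3 without mitochondrial UMIs, 3 also without heart muscle UMIs, 5 when centred, 10 scaled to heart muscle and 3 scaled to the mitochondrial reference, where 40.9%, 39.6%, 35.7%, 95.5% and 75.9% of all genes, in that order, were at least 1.5-fold apart. Classes with lower Sod2, 4 of 5, were 3 of 5 after thinning, 2 of 2 in cells with at most 25% mitochondrial UMIs and 5 of 5 without marked doublets. The 4 other redox genes past 1.5-fold became 9 with each cell weighed alike, 9 in cells with at most 25% mitochondrial UMIs, 9 after thinning and 1 at 2-fold. The cause of these shifts was not tested. Cells over 25% were not run for PDL1/ATZ, which had 9 of them. Hmox1, with 133 to 165 UMIs per library, and the classes other than cardiomyocyte-like, with at most 20 Sod2 UMIs each, limit what counting can show.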
